A study of Mus musculus with 8 samples.

Results

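The imprinted Dlk1-Dio3 locus on mouse chromosome 12 was followed through 7 genes in adult male hippocampus: Meg3, Rian and Mirg, which are expressed from the maternal chromosome, Rtl1, Dlk1 and Dio3, which are expressed mainly from the paternal chromosome, and the neighbouring gene Begain. They are the rows of the count table that bear these symbols, 7 of 24527 rows, and all 7 had enough counts to be tested among 15434 genes. RNA came from the hippocampus of 8 wild-type C57BL/6J males aged 20 weeks. The 4 control mice were exposed before birth and while nursed to a low-phytoestrogen diet. The 4 BPA mice were exposed over the same period to that diet with bisphenol A (BPA), a building block of plastics that can bind hormone receptors, at 50 mg per kg of diet. Both groups ate the control diet from weaning on postnatal day 21. The locus was selected on values of the BPA against control comparison in these libraries, the fold changes of Rtl1 and Meg3 among them, so every value of that comparison for them is a description and carries no test.

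In an imprinted locus the parental origin of a chromosome decides which of its genes are transcribed. At Dlk1-Dio3 an intergenic control region is methylated on the paternal chromosome and unmethylated on the maternal one, and the KRAB zinc finger protein ZFP57 helps to keep that methylation. The unmethylated maternal copy gives a long series of noncoding RNAs that hosts snoRNAs and a large group of miRNAs, and the paternal copy gives protein-coding genes. In the brain, the noncoding RNAs of the locus are abundant in neurons. Both parents' chromosomes are of 1 inbred strain here, so reads from the 2 alleles were not separated, and "maternal" and "paternal" below are known assignments of the genes, not measurements.

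Rtl1 and the miRNAs on its opposite strand show how the alleles meet in sequence. Rtl1 is a gene derived from a retrotransposon, and miRNAs made from the maternal chromosome on the other strand are fully complementary to its RNA. With hairpin positions from RefSeq and Rtl1 exons from GENCODE, 6 such hairpins lay inside Rtl1. Their 11 mature arms each matched the Rtl1 transcript (6358 bases) over their whole length, all 11 within its coding part. They are shown 5′ to 3′ with the seed, bases 2 to 8, in capitals, in the order of their positions on the plus strand of chromosome 12 (mm10).
mmu-miR-431-5p: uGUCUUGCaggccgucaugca
mmu-miR-431-3p: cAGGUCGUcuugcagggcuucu
mmu-miR-433-5p: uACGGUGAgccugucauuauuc
mmu-miR-433-3p: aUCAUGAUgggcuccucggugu
mmu-miR-127-5p: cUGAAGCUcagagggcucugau
mmu-miR-127-3p: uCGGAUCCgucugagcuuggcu
mmu-miR-434-5p: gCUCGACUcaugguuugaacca
mmu-miR-434-3p: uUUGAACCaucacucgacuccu
mmu-miR-432: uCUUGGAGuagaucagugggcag
mmu-miR-136-5p: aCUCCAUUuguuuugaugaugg
mmu-miR-136-3p: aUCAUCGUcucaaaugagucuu
No seed was shared among these 11 arms. The first, miR-431-5p, lies at chr12:109590459-109590479 and pairs with bases 5072 to 5092 of the Rtl1 transcript. The last, miR-136-3p, lies at chr12:109595366-109595387 and pairs with bases 164 to 185. Over all 61 miRNA rows between Begain and Dio3, RefSeq gave 113 mature sequences with 104 distinct seeds, of which 9 were shared, each by a pair. An example of a shared seed, AUGUAAC, came from the arms miR-379-3p and miR-411-3p.
mmu-miR-379-3p: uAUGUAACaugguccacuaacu
mmu-miR-411-3p: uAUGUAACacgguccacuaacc

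Control libraries of polyadenylated RNA totalled 27.1 to 40.8 M (mega) counts and BPA libraries 43.1 to 54 M, so every BPA library was deeper and depth and exposure cannot be told apart by group. The 7 genes took 0.103 to 0.142% of the counts of a library, and the ribosomal precursor Rn45s took 5.41 to 7.57% in controls and 5.15 to 7.53% in BPA mice. Levels are given as CPM, counts scaled to a common library total with TMM factors, with the mean ± SD of the 4 mice in a group. Markers of hippocampal neurons were present: none of 9 dentate granule, 7 CA1 and 11 CA3 or CA2 markers was at 0, and the 9 dentate markers summed to 466 to 653 CPM in controls and 600 to 645 CPM in BPA mice. Choroid plexus RNA, a sign of adjoining tissue, varied widely: its 12 markers summed to 213 to 3140 CPM in controls, highest in control 2, and to 169 to 839 CPM in BPA mice, highest in BPA 3. Markers of the meninges, the membranes around the brain, summed to 359, 376, 171 and 153 CPM in controls 1 to 4 and to 176, 180, 631 and 172 CPM in BPA 1 to 4, so that controls 1 and 2 and BPA 3 stood above the rest. Markers of the hypothalamus, a neighbour rich in peptide neurons, summed to 1.61 to 4.53 CPM in controls and 1.87 to 2.15 in BPA mice. Some marker lists leaned one way between groups, with no marker called. Dentate granule markers were higher in BPA mice for 9 of 9 (median log2 fold change 0.18) and CA1 markers lower for 6 of 7 (-0.10). Ependymal markers were lower for 9 of 9 (-0.42) and choroid plexus markers for 12 of 12 (-1.26). All these sums overlapped between groups, and outlying ones were found in both. Dentate sums were 466, 636, 653 and 502 CPM in controls 1 to 4. CA1 sums were 551, 429, 465 and 536 CPM, against 442 to 484 in BPA mice. Ependymal sums were 25.2, 41.5, 20.3 and 21.8 CPM, against 28.3, 17.9, 16.5 and 18.6 in BPA 1 to 4. Choroid plexus sums were 287, 3140, 213 and 310 CPM in controls, against 364, 169, 839 and 234 in BPA 1 to 4. The part of these marker lists in the members' values was not tested. In bulk tissue, fewer cells of a type and less RNA per cell cannot be told apart.

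Across the locus, Rtl1 was the gene whose levels separated the groups, with a lower scaled level in every BPA library than in any control. The other 6 genes overlapped between groups, with fold changes between 0.894 for Meg3 and 1.19 for Dio3. No member passed the threshold, an adjusted p under 0.05 over all genes in edgeR's quasi-likelihood test, and neither did any other gene (0 of 15434, 0%, with 698 at an unadjusted p under 0.05). DESeq2 called 7 of 20749 genes (0.0337%), with no member among them. limma-voom called 0, with 704 at an unadjusted p under 0.05. In each of these tools 1 of the 7 members was at an unadjusted p under 0.05. Groups that do not overlap were found for 432 of 15434 genes (2.80%), and with BPA lower for 223 (1.44%). Among the members 5 had a log2 fold change below 0 and 2 above it, against 7711 and 7723 of all genes tested.

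**Figure D1:**
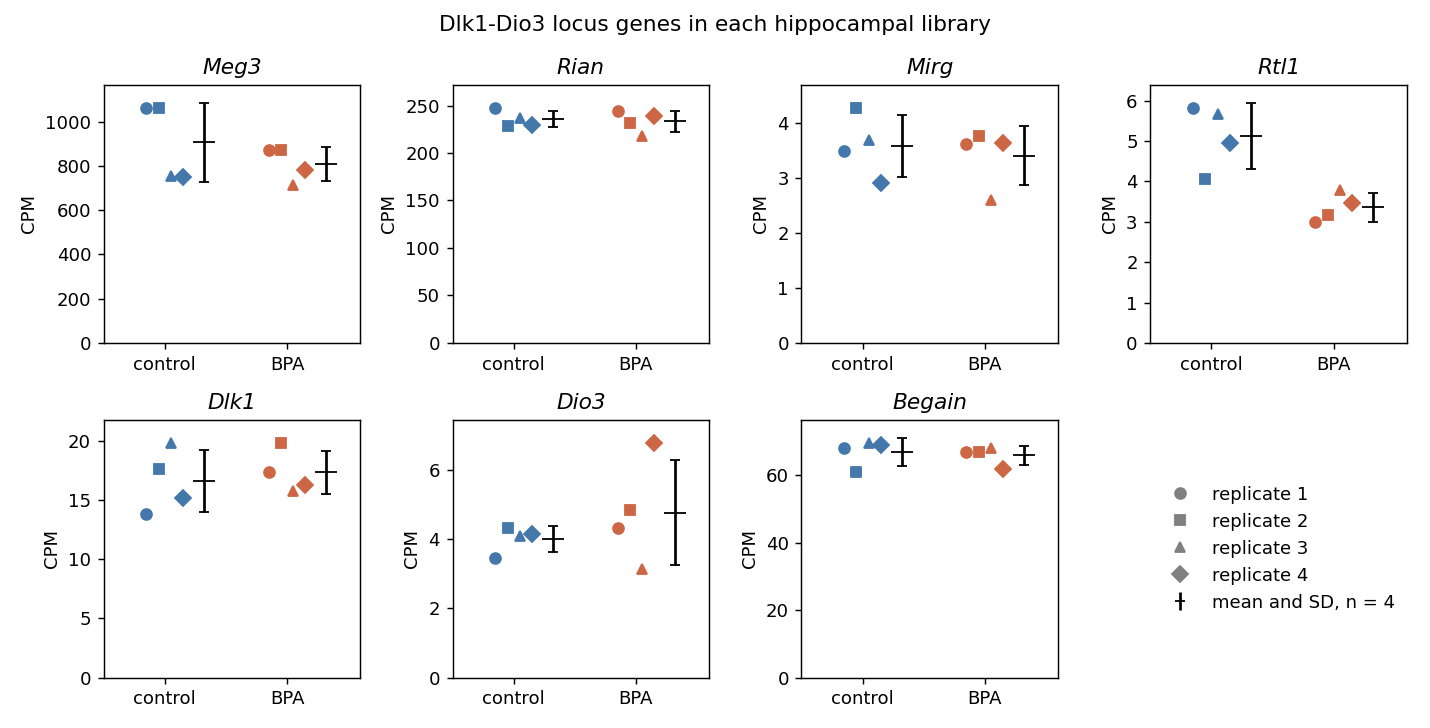
Level of each gene in CPM (vertical axis, from 0) in the 4 control and 4 BPA libraries; symbols mark the replicate and black bars the mean and SD of 4 mice. Rtl1 lies at 4.05 to 5.81 CPM in controls and 3 to 3.8 CPM in BPA mice, and the groups overlap for the other 6 genes.

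Meg3 is a long noncoding RNA kept largely in the nucleus and the first transcript of the maternal series. It lies at chr12:109541001-109571726 on the plus strand, annotated as a lincRNA, and the unit overlaps Gm26906 on the opposite strand. Its counts were 42934, 39666, 23353 and 19701 in controls 1 to 4, and 39062, 46611, 30997 and 33916 in BPA 1 to 4. In CPM this was 1060, 1060, 754 and 751 in controls and 873, 870, 714 and 782 in BPA mice. Controls 1 and 2 stood above all BPA mice, while controls 3 and 4 fell inside the BPA range. The means were 906 ± 177 and 810 ± 76.5 CPM, a log2 fold change of -0.16 ± 0.12 (SE), or 0.894-fold with a 95% interval of 0.752 to 1.06. Within groups, the log2 level of Meg3 had an SD of 0.22, above 99.7% of the 304 genes within 1 log2 unit of its level. With the log2 library total as a covariate, the estimate was -0.54 ± 0.12 in edgeR (adjusted p = 0.998). It was -0.55 ± 0.11 in DESeq2 (adjusted p = 0.0106), an alternative chosen after seeing the data. There Meg3 was 1 of 3 genes called of 20777 (0.0144%), beside Malat1 and Lrp1. The locus was selected partly on the Meg3 fold change, and every BPA library was deeper than every control. This call is therefore a description and not a test. Without control 2 and BPA 3, the libraries with most choroid plexus RNA, the estimate was -0.03 ± 0.11. For Meg3 they were also at the highest control value, shared with control 1, and the lowest BPA value. Leaving them out thus shrinks the difference whatever their choroid plexus RNA, whose part was not tested.

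The split of the controls was also seen in some other noncoding RNAs that stay in the nucleus, and in markers of some other cell types. These were named here after their values were seen. Malat1, a nuclear speckle RNA, was at 1980, 1860, 1390 and 1370 CPM in controls 1 to 4, against 1300, 1520, 1440 and 1500 CPM in BPA 1 to 4. Snhg11, a neuronal snoRNA host gene, was at 387, 366, 275 and 285 CPM in controls, against 308, 290, 233 and 283 CPM in BPA mice. Miat was at 124, 141, 109 and 92.1 CPM in controls, against 123, 110, 103 and 108 CPM in BPA mice. In each, controls 1 and 2 were above controls 3 and 4, as for Meg3, and no BPA library reached controls 1 and 2. Neat1 and Peg13 did not share the split: Neat1 was at 35.1, 53.8, 27.6 and 35.9 CPM in controls and Peg13 at 341, 309, 334 and 309 CPM. Of the 14 tested genes in the list of nuclear noncoding RNAs, 11 were lower and 3 higher in BPA mice, with a median log2 fold change of -0.08 against 0.0000 for all genes, and none was called by edgeR. Among cell type markers, those of oligodendrocytes summed to 2550, 2550, 2320 and 2290 CPM in controls 1 to 4, against 2250 to 2380 CPM in BPA mice. Markers of endothelial cells and pericytes summed to 308, 311, 282 and 292 CPM in controls, against 275 to 294 CPM, and the meningeal markers given above were likewise higher in controls 1 and 2. Neuron markers went the other way: those of excitatory neurons summed to 12500, 11700, 13000 and 13700 CPM in controls 1 to 4. Those of interneurons summed to 1130, 1110, 1190 and 1220 CPM. Astrocyte markers, at 10100, 10500, 10300 and 11700 CPM, did not share the split. Their part in the Meg3 fold change was not tested.

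**Figure D2:**
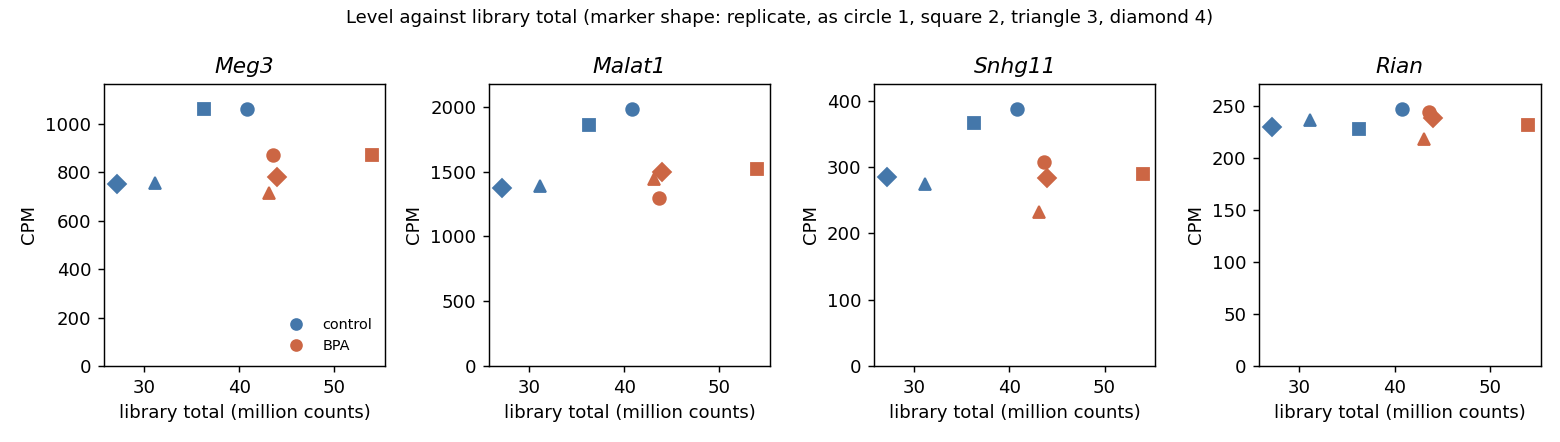
CPM (vertical axis, from 0) of Meg3, Malat1, Snhg11 and Rian against the library total in M counts, with controls in blue, BPA mice in orange and the replicate given by the symbol. Controls 1 and 2 lie above controls 3 and 4 for the first 3 genes, while Rian stays between 218 and 247 CPM in all 8 libraries.

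Meg3 starts at a promoter that holds a full cyclic AMP response element, the site of CREB family factors, and its sequence is shown for that reason. The RefSeq window (mm10, chr12:109540746-109541045, plus strand, 250 bases before the start and 50 after) is printed 5′ to 3′, with the element TGACGTCA and the TATA box matches in capitals.
Meg3: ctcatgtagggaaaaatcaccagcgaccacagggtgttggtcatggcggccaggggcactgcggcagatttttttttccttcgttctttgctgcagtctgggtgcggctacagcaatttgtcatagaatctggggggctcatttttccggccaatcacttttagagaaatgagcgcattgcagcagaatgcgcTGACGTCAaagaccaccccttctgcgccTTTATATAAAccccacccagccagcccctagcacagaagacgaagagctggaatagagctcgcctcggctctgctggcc
TGACGTCA began at -57 from the start, and TATAAA began at -25 and, read on the other strand, at -29, the pair overlapping. Both strands of 32851 promoter windows of the same length were searched. TGACGTCA was present in 1.79% of them, and among 11 windows of 6 members (Rtl1 had none in the table) in that of Meg3 alone. TATAAA was present in 13.6% of windows, and in the members in those of Meg3 and Dio3, at -31 in Dio3. TGCCGC, the methylated form of which ZFP57 reads, was in 11.6% of windows and in the members in the Meg3 window, on the reverse strand at -190. The oestrogen response element, searched as GGTCA followed after 3 bases by its reverse complement (in 0.07% of windows), and the element TCAAGGTCA of oestrogen-related receptors (0.423%) were in none of the 11 windows. CG dinucleotides numbered 13 and 1 in the 2 Meg3 windows, 0 in that of Rian, 10 in Mirg, 9 in Dlk1, 25 in Dio3 and 34 to 46 in the 5 of Begain, against a median of 7. These matches describe letters only.

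Rian, the next transcript, hosts C/D box snoRNAs that sit in its introns, and was the steadiest of the maternal genes. It lies at chr12:109603940-109661716 on the plus strand. Its CPM was 247, 228, 237 and 230 in controls 1 to 4 and 244, 232, 218 and 239 in BPA 1 to 4. The means were 236 ± 8.92 and 233 ± 11.5 CPM, a log2 fold change of -0.01 ± 0.05 with a 95% interval of the fold from 0.919 to 1.07. Groups overlapped almost fully, and the within-group SD of Rian ranked at the 40.1 percentile of 1610 genes at its level. Rian varied less than Meg3, and the ratio of Meg3 to Rian CPM followed Meg3: 4.29, 4.64, 3.18 and 3.27 in controls and 3.57, 3.76, 3.28 and 3.26 in BPA mice.

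The snoRNAs encoded within Rian had counts of their own, and the 2 most counted are shown as examples, with the C box TGATGA and the D box CTGA in capitals. Both come from the plus strand of mm10, AF357355 at chr12:109654627-109654698 (72 bases, named Gm26922 in GENCODE) and AF357425 at chr12:109636012-109636084 (73 bases).
AF357355: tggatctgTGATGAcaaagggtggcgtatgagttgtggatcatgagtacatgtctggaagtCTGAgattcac
AF357425: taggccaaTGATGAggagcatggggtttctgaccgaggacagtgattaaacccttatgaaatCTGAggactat
Of 454 annotated snoRNA transcripts of 60 to 100 bases, 70% held TGATGA followed by CTGA on the transcribed strand. AF357355 was at 38.8 ± 10.2 CPM in controls (29.3 to 48.2) and 45.5 ± 9.64 CPM in BPA mice (34.5 to 55.2), a log2 fold change of 0.23 ± 0.18. AF357425 was at 11.6 ± 2.65 and 14.7 ± 3.69 CPM, 0.34 ± 0.18. AF357359 was at 11.8 ± 1.14 and 11.1 ± 0.656 CPM, -0.08 ± 0.08, and DQ267102 at 1.83 ± 0.282 and 1.99 ± 0.37 CPM, 0.12 ± 0.17. All 4 overlapped between groups. Reads here come from fragmented polyadenylated RNA, so these rows may count host RNA over a snoRNA as well as the snoRNA itself. The share of each was not tested. The remaining 3 of 7 snoRNA rows were too low to test, at 4 to 54 counts over the 8 libraries.

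Mirg, the last of the maternal series, is known as a host of the miR-379 to miR-410 group of miRNAs. The annotated unit lies at chr12:109729764-109749460 on the plus strand. It takes in the row of miR-410, which starts at 109743715, but not that of miR-379, which starts at 109709060. Mirg was low in CPM, at 76 to 201 counts per library. Its CPM was 3.48, 4.26, 3.68 and 2.9 in controls 1 to 4 and 3.62, 3.75, 2.6 and 3.64 in BPA 1 to 4. BPA 3 was the lowest of the 8 and control 2 the highest, the same libraries that held most choroid plexus RNA in their groups; its part in the Mirg values was not tested. The means were 3.58 ± 0.564 and 3.41 ± 0.537 CPM, a log2 fold change of -0.08 ± 0.15, which became 0.12 ± 0.13 without these 2 libraries.

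Rtl1 encodes a protein needed for the capillaries of the placenta and is also expressed in brain. In GENCODE it lies at chr12:109589193-109600330 on the minus strand, and its exons overlap 6 miRNA hairpins on the opposite strand. The RefSeq model is longer, chr12:109564900-109604418, and reaches over the end of Meg3 and the start of Rian on the other strand. Its counts were 235, 152, 176 and 130 in controls 1 to 4 and 134, 170, 165 and 150 in BPA 1 to 4. Scaled to library size, this was 5.81, 4.05, 5.68 and 4.95 CPM in controls, and 3, 3.17, 3.8 and 3.46 CPM in mice exposed to BPA. Every BPA value was below every control value, with the narrowest gap between control 2 (4.05) and BPA 3 (3.8). The raw counts of the groups overlapped, and the separation appeared once the deeper BPA libraries were scaled. The means were 5.12 ± 0.808 and 3.36 ± 0.353 CPM, a log2 fold change of -0.61 ± 0.13, or 0.655-fold with a 95% interval of 0.539 to 0.796. The estimate lay between -0.78 and -0.54 in all 18 alternative analyses run, and was -0.60 ± 0.21 with the log2 library total as a covariate. All of them reuse the libraries on which the locus was selected, so this range is a description and not a test. Whether reads were assigned by strand is not stated by the labels or the file, so the share of Rtl1 counts that belongs to transcripts of the other strand is uncertain.

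The rows of the miRNAs that target Rtl1 held no reads. All 7 miRNA rows inside the GENCODE span of Rtl1 (the 6 hairpins above and Mir3071) were at 0 in the 8 libraries, as was 6430411K18Rik, an antisense RNA in Rtl1. Of the 54 miRNA rows outside that span, 12 were at 0 in all libraries. The longer RefSeq span takes in 8 of the 54, which held 28 counts together, with 2 of the 8 at 0. The 61 miRNA rows together held 386 counts, at most 64 in a row. None had 10 counts in 4 libraries, so none was tested. Reads here come from fragmented polyadenylated RNA, so such a row counts host or precursor RNA over a hairpin and not the mature miRNA, and no source used here says how reads over several genes were counted. Its part in the zeros was not tested.

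**Figure D3:**
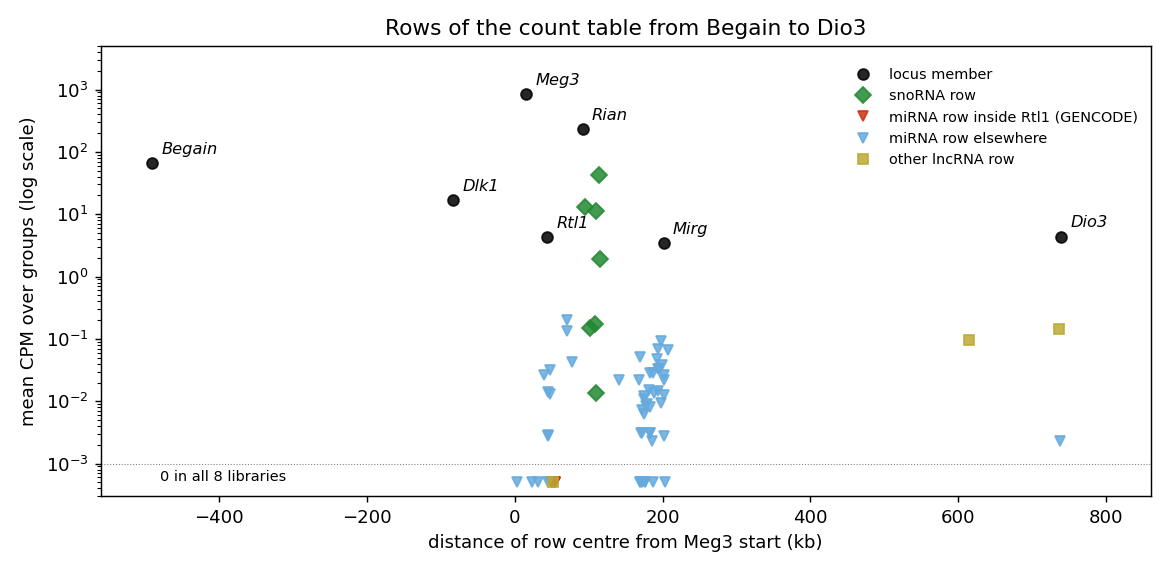
Mean CPM over the groups (log axis) of the 78 table rows from Begain to Dio3 against the distance of the row's centre from the Meg3 start in kb; rows below the dotted line had no count in any library. The 7 members and 4 of the snoRNA rows lie above 1 CPM, and the 61 miRNA rows held 386 counts in all.

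Dlk1 encodes a transmembrane protein related to the ligands of Notch that keeps progenitor cells undifferentiated. It lies at chr12:109452823-109463336 on the plus strand. Its CPM was 13.8, 17.6, 19.8 and 15.2 in controls 1 to 4 and 17.4, 19.8, 15.8 and 16.3 in BPA 1 to 4. The lowest value was that of control 1, and the BPA values lay inside the control range. The means were 16.6 ± 2.65 and 17.3 ± 1.77 CPM, a log2 fold change of 0.07 ± 0.11 with a 95% interval of the fold from 0.893 to 1.23.

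Dio3 encodes type 3 deiodinase, the enzyme that inactivates thyroid hormone, from a single exon at chr12:110279068-110281097 on the plus strand. Its counts were 140, 163, 127 and 109 in controls 1 to 4 and 193, 260, 136 and 294 in BPA 1 to 4. This was 3.46, 4.34, 4.1 and 4.15 CPM in controls, and 4.32, 4.85, 3.13 and 6.78 CPM in mice exposed to BPA. The BPA mice held both the highest value, in BPA 4, and the lowest, in BPA 3, with a coefficient of variation of 31.8% against 9.57% in controls. The means were 4.01 ± 0.384 and 4.77 ± 1.52 CPM, a log2 fold change of 0.25 ± 0.19. BPA 4 carried most of that: without it the estimate was 0.04 ± 0.15, and without BPA 3 it was 0.41 ± 0.15. BPA 4 also had the lowest ratio of Dlk1 to Dio3 CPM, 2.41, against 3.66 to 5.04 in the other 7 libraries.

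Begain encodes a protein that binds the postsynaptic scaffold PSD-95 and lies beyond Dlk1, at chr12:109032187-109068217 on the minus strand. It was counted with neither parental group. Its CPM was 68.1, 60.8, 69.5 and 68.9 in controls 1 to 4 and 66.9, 67, 68 and 61.8 in BPA 1 to 4. One mouse of each group, control 2 and BPA 4, lay below the others. The means were 66.8 ± 4.09 and 65.9 ± 2.8 CPM, a log2 fold change of -0.02 ± 0.05.

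The distance between the 3 maternal and the 3 paternal genes was similar in both groups of mice. The mean log2 CPM of Meg3, Rian and Mirg exceeded that of Rtl1, Dlk1 and Dio3 by 3.90, 3.90, 3.49 and 3.55 in controls 1 to 4 and by 3.91, 3.76, 3.69 and 3.60 in BPA 1 to 4. The groups overlapped, at 3.71 ± 0.219 and 3.74 ± 0.133. The difference between the mean log2 fold changes, maternal minus paternal, was 0.01, and -0.23 with the log2 library total as a covariate. Within the paternal side the estimates ranged from -0.61 for Rtl1 to 0.25 for Dio3, so its mean of near 0 joins genes of unlike estimates. Of all pairs set against each other, the ratio of Meg3 to Rtl1 CPM was 183, 261, 133 and 152 in controls and 292, 274, 188 and 226 in BPA mice, with overlapping groups.

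**Figure D4:**
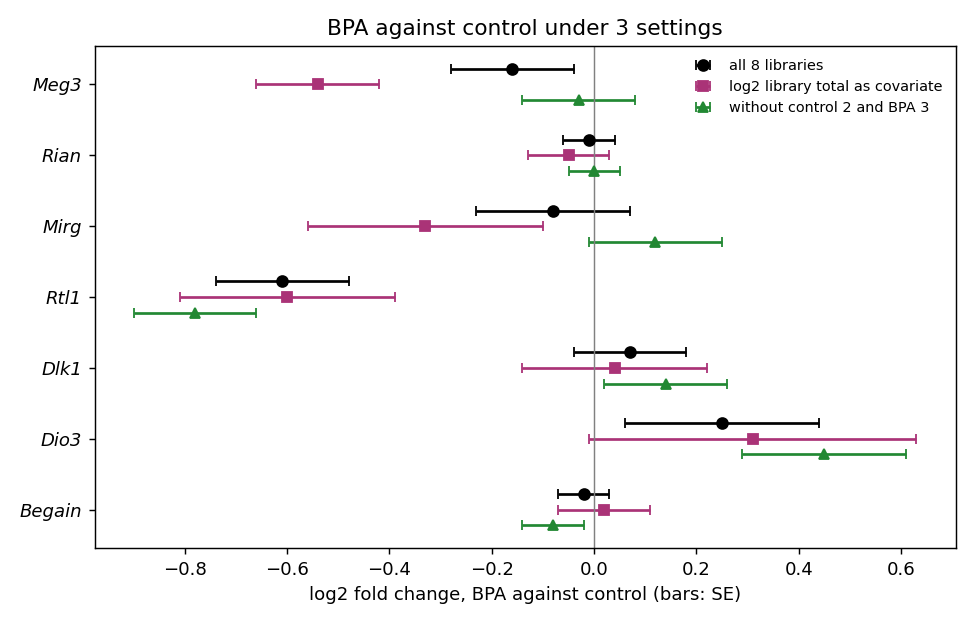
Log2 fold change of each gene, BPA against control, with SE bars, from edgeR on all 8 libraries, with the log2 library total as a covariate, and without control 2 and BPA 3. Rtl1 stays between -0.78 and -0.60 in the 3 analyses, while Meg3 moves from -0.54 to -0.03.

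Per kb of annotated exon, the levels of the 7 genes spanned a wide range. Meg3 stood highest in controls, at 57.7 ± 11.3 CPM per kb, followed by Begain at 24.7 ± 1.51 and Rian at 12.9 ± 0.489. Dlk1 came next at 3.47 ± 0.555 CPM per kb and overlapped Mirg, at 2.75 ± 0.434, in controls (2.88 to 4.14 against 2.23 to 3.28). Dio3 was at 1.98 ± 0.189 CPM per kb, with no control overlapping Mirg, and Rtl1 was lowest at 0.806 ± 0.127. The order of means was the same in BPA mice, where Dlk1 (3.3 to 4.14) stood clear of Mirg (2 to 2.89), Dio3 (1.54 to 3.34) overlapped both, and Rtl1 was at 0.528 ± 0.0555 CPM per kb. The lengths come from GENCODE exons, 15.7 kb for Meg3 and 18.2 kb for Rian, and the models the authors counted on may differ.

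Genes whose levels followed each member most closely were sought among 10935 tested genes with a mean of at least 5 CPM, by Pearson correlation of log2 CPM over the 8 libraries after subtraction of the group mean. All top values were 0.95 or more as the 3 highest of all candidates for each member, over 8 libraries that differ in depth. Meg3 was most like Rabggta, A330023F24Rik and Gins4 (0.97 each). All 3 showed the same split of the controls as Meg3, which their choice by correlation within groups favours. In controls 1 to 4, Rabggta was at 11.5, 11.1, 9.72 and 9.57 CPM. A330023F24Rik was at 27.6, 27.8, 22.2 and 20.8 CPM, and Gins4 at 9.24, 9.43, 8.1 and 7.81 CPM. Rian was most like Tssc4, Dctn5 (0.99 each) and Smdt1 (0.98), and Mirg like Fars2 (0.99), Tmub1 and Zc3h11a (0.97 each). Rtl1 was most like Crkl (0.97), Uevld and Klf6 (0.95 each), none of which shared its difference between groups: Crkl was at 54.1 CPM in controls against 52.7 in BPA mice on average. Dlk1 was most like Lmln (0.98), Kdm4a (0.96) and Nrp2 (0.95). Dio3 was most like Hist1h1c, 4931428F04Rik and Ears2 (0.97 each). Hist1h1c, a linker histone, was highest in BPA 4, at 8.73 CPM against 3.64 to 5.13 in the other 7, which its choice by correlation favours. Begain was most like B3gat1 (0.99), the immediate early gene Fos (0.98) and Midn (0.97).

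Genes of the pathways around the locus were described by fixed lists. Of the 309 tested genes of these lists and the marker lists, edgeR called 0, with 22 at an unadjusted p under 0.05. DESeq2 called 0 of 315, with 20 at an unadjusted p under 0.05, and limma-voom 0, with 25. Flanking genes on chromosome 12 were higher in BPA mice for 9 and lower for 5 of 14, with a median log2 fold change of 0.03. Evl, an actin regulator, was at 39.2 ± 2.82 CPM in controls against 43.1 ± 3.55 CPM in BPA mice, and Slc25a29 at 2.74 ± 0.222 and 3.12 ± 0.342 CPM. Of 35 Notch pathway genes 14 were higher and 21 lower, median -0.02. Hes5, a Notch target, was at 3.1 ± 1.12 CPM in controls against 1.85 ± 0.745 in BPA mice, and Mfng, which glycosylates Notch, at 0.638 ± 0.0593 and 0.845 ± 0.0807 CPM. Dlk2, the relative of Dlk1, was at 4.93 ± 0.777 and 4.97 ± 0.415 CPM. Of 17 thyroid hormone genes 10 were higher and 7 lower, median 0.04. The receptor gene Thra was at 554 ± 17.4 CPM in controls against 606 ± 37.2 in BPA mice, Thrsp at 29.1 ± 3.62 and 33.8 ± 6.85, and Dio2, the deiodinase that activates the hormone, at 115 ± 11.6 and 122 ± 5.91 CPM.

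Genes that maintain imprints were split in direction, with 10 higher and 9 lower of 19 and a median of 0.00. Zfp57 was at 3.99 ± 0.724 CPM in controls against 3.96 ± 0.401 in BPA mice, and the heterochromatin protein gene Cbx5 at 400 ± 21.9 and 372 ± 16.3 CPM. Of 8 genes linked to Meg3, 5 were higher and 3 lower, median 0.01. The polycomb genes Eed, at 17.4 ± 0.566 and 18.3 ± 1.12 CPM, and Mtf2, at 36.2 ± 2.86 and 34.5 ± 1.6 CPM, had the smallest p of these. Of 13 miRNA processing genes 6 were higher and 7 lower. Tarbp2, a partner of Dicer, was at 2.99 ± 0.241 CPM in controls against 2.51 ± 0.164 in BPA mice, and Drosha, which cuts hairpins from their host RNA, at 140 ± 4.78 and 149 ± 8.25 CPM. Of 10 tested relatives of Rtl1 from the same retrotransposon family 8 were higher and 2 lower, median 0.05. Rgag1 was at 1.52 ± 0.103 and 1.86 ± 0.345 CPM, and Cxx1b at 74.2 ± 2.95 and 77.4 ± 0.774 CPM. Imprinted genes of other loci were higher for 24 and lower for 16 of 40, median 0.02. Kcnq1ot1, the imprinted noncoding RNA of another locus, was at 22 ± 3.68 and 18.4 ± 1.78 CPM, and Ndn at 84.6 ± 5.52 and 110 ± 35.2 CPM. In BPA 1 to 4 Ndn was at 108, 161, 85.8 and 87 CPM, against 76.8 to 89.2 CPM in controls. Rmst, a nuclear noncoding RNA, was at 1.46 ± 0.213 and 1.09 ± 0.263 CPM. Of 19 activity-regulated genes 14 were higher and 5 lower, median 0.08. Nr4a3 was at 374 ± 46.8 CPM in controls against 298 ± 20.1 in BPA mice, and Fosl2 at 57 ± 8.41 and 64.4 ± 3.36 CPM.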

How the data were processed

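Polyadenylated hippocampal RNA was made into stranded libraries (ScriptSeq v2) and sequenced on a NextSeq, per the labels' protocols and the series text. The authors deposited raw read counts per gene in 24527 rows, 1 column per library, matched to samples by the library code in each title. Trimmomatic 0.32, STAR 2.3.0e, featureCounts 1.5.0, DESeq2 (no version) and mm10 are named per the submitters' processing notes; per the file headers, genes follow refGene. No source used here gives the strand setting of the counting.

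Counts were filtered with filterByExpr, TMM-scaled and fitted with edgeR 4.0.16 (R 4.3.3; quasi-likelihood test, two-sided, Benjamini-Hochberg over 15434 genes, threshold 0.05) with 1 group term; 3750 rows had no count. DESeq2 1.42.0 and limma-voom (limma 3.58.1) were alternatives. SEs come from the test statistic. The edgeR script was tested on simulated data. All 12 pairs of same-group libraries differed by more than sampling noise (chi-square over degrees of freedom, 9.69 to 23.5), so none was a copy of another library. These values cannot tell separate preparations of the same mouse from different mice. The series text calls the 4 mice of a group independent biological replicates; litters are not named, so p-values measure the spread between these mice.

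Members and lists were chosen with earlier results of these data known. All 7 members were named, locus rows with at least 10 counts in 4 libraries, the 2 genes of each pathway list with the smallest p when none was called, and the 3 genes most like each member; 1 gene this rule names is not reported here but stays in every count. Malat1, Snhg11, Miat, Neat1, Peg13, Dlk2, Dio2 and Zfp57 were named after their values were seen. Positions and lengths come from GENCODE vM21, sequences from RefSeq (GRCm38.p6) and GENCODE.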

Additional observations from a re-analysis of the deposited data

Results flagged for a closer look

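Among 14 groups of 4 libraries (7 genes in 2 groups), 2 held a library whose gap to its nearest neighbour passed Dixon's 95% limit for the share of the group's range; chance gives about 1 in 20. Mirg in BPA 3 was at 2.6 CPM, against 3.62 to 3.75 in the other BPA mice, a gap of 0.887 of the range. Begain in control 2 was at 60.8 CPM, against 68.1 to 69.5 in the other controls, a gap of 0.845 of the range. BPA 3 and control 2 also held the most choroid plexus marker RNA of their groups, whose part in these values was not tested. The direction differed between them: Mirg was highest of the controls in control 2, at 4.26 CPM. Begain was highest of the BPA mice in BPA 3, at 68 CPM.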

How the results depend on the processing

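edgeR called no gene under any setting run with it, and the count was 7 with DESeq2 and 3 with DESeq2 and the log2 library total as covariate, an alternative chosen after seeing the data. Under that last setting 1 member (Meg3) and 1 list gene (Malat1, -0.57 ± 0.10, adjusted p = 0.000831) were called. The maternal minus paternal difference was 0.01 and became -0.23 with the covariate, in edgeR and in DESeq2 alike, and ranged from -0.06 to 0.08 when 1 library was left out. Estimates near 0 changed sign: Begain was 0.02 with the covariate in both tools, and Mirg 0.12 without control 2 and BPA 3. Leaving out 1 library moved Rian between -0.04 and 0.02 (above 0 without control 1 or BPA 3), Mirg between -0.16 and 0.03 (without control 2 or BPA 3), Dlk1 between -0.02 and 0.16 (below 0 without control 1 or BPA 2) and Begain between -0.06 and 0.01 (without control 3 or BPA 4). Meg3 ranged from -0.24 to -0.08, Rtl1 from -0.71 to -0.54 and Dio3 from 0.04 to 0.41. The cause was not tested.

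Rtl1 was below 0 in 18 of 18 alternatives, among them libraries thinned to the smallest total, also added after seeing the data (-0.62 ± 0.12). These alternatives reuse the libraries on whose Rtl1 fold change the locus was selected, so the steady sign is a description and not a test. Genes at an unadjusted p under 0.05 numbered 698 in all 8 libraries, 354 without BPA 2, 1167 without control 3 and 1031 without BPA 3. With the label's replicate number as a replicate block, 0 genes were called (498 at an unadjusted p under 0.05), Rtl1 was at -0.60 ± 0.13 and Meg3 at -0.15 ± 0.07. Same-numbered libraries did not deviate together (r = -0.14, -0.45, -0.36 and 0.04) and 1 of 4 controls correlated best with its own number. No pairing by number was seen, but 4 such correlations cannot exclude one, and litters are not named. Depth limits the rarer members: Mirg, Rtl1 and Dio3 had 76 to 294 counts per library.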
